A study of Drosophila melanogaster with 54 samples.

Results

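Whole male fruit flies (Drosophila melanogaster) carrying 2 copies of a nuclear misfolding-prone reporter were compared with males carrying 1 copy, both reared at 18 °C and aged 10 days. The reporter, FLucDM-GFP, is a destabilised firefly luciferase fused to green fluorescent protein, and here it carries a nuclear localisation signal (NLS). The comparison takes 3 libraries labelled NLS 2 copies and 3 labelled NLS 1 copy, 6 of the 54 libraries of the study, and covers every gene in the deposited table. The groups used beside them, each of 3 libraries from 10-day-old males, were the NLS 2-copy and NLS 1-copy flies at 25 °C, the same at 29 °C, flies with 2 copies or 1 copy of the mitochondrial form (Mito) at 18 °C, and the control strain w1118, which the study's design calls isogenic and which lacks the reporter, at 18 °C. Per the labels RNA came from whole flies. The promoter that drives the reporter, the place of its insertion, the number of flies per library and whether the replicates were separate cultures have no statement in the labels. The p-values therefore reflect only how far libraries spread within groups, taken over all 54 libraries of the study.

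Cells that accumulate misfolded protein are known to raise chaperones, which refold or hold such proteins, and to remove them through the proteasome and autophagy. In the nucleus, where lysosomes cannot reach, the proteasome and SUMO-directed ubiquitin ligases take part in this clearance. In whole flies, transcript levels also follow the gut, fat body and reproductive organs, where detoxification enzymes such as cytochrome P450s and glutathione S-transferases, digestive proteases and seminal proteins are expressed.

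Values are TPM, a transcript level scaled to gene length and library size, in which the summed level of all genes is the same in every library. TPM keeps no counts, so read depth is unknown. The 6 libraries had between 12045 and 12070 genes at 1 TPM or more. Pearson correlations of log2(TPM + 1) were 0.9903 to 0.9961 within the groups and 0.9837 to 0.9922 between them. Markers of the female germline and yolk, which males should lack, summed to 14.3 to 15.1 TPM in NLS 2 copies and 15.4 to 17.24 TPM in NLS 1 copy, and 1 of the 8 tested, the yolk protein gene Yp3, was lower in NLS 2 copies. Yp3 did not pass with limma without replicate 2 or 3 of NLS 2 copies, or without replicate 3 of NLS 1 copy (adjusted p = 0.1326, 0.09032 and 0.2937). A pair of libraries stood apart. Replicate 3 of NLS 2 copies held 11389 TPM of antimicrobial peptide transcripts, and the other 5 libraries held 1337 to 2097 TPM. Replicate 1 of NLS 1 copy held 132 TPM of the stress peptide TotM, against 17.4 TPM or less in the other 5.

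The eye pigment transporter gene w (white, X, 2790599 to 2796466, build BDGP6), which commonly marks transgenes in w1118 flies, did not separate the copy labels. It stood at 5.79, 7.13 and 6.81 TPM in NLS 2 copies, against 3.84, 6.61 and 5.30 TPM in NLS 1 copy, and at 1.36 ± 0.325 TPM in w1118 (SD, n = 3). The groups overlapped, and the log2 difference of 0.30 ± 0.15 (SE) did not pass (adjusted p = 0.192). The reporter's own transcript was not analysed here, so the copy number rests on the labels.

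With 2 copies in place of 1, 600 genes rose and 980 fell among 12555 tested with limma at an adjusted p under 0.05. These 1580 genes are 12.6% of those tested, 4.78% higher and 7.81% lower. Most differences were small, since only 21 of the genes that rose and 39 of those that fell changed by 2-fold or more on the log2(TPM + 1) scale. At an unadjusted p under 0.05, 3398 genes differed, and 4057 genes (32.3%) had no overlap between the 3 libraries of one group and the 3 of the other. The split between directions depended on scaling. Of the calls, 38.0% were higher in NLS 2 copies, and with median-ratio size factors applied to the TPM 48.1% were higher (833 genes higher, 899 lower). Leaving out replicate 3 of NLS 2 copies left 370 genes higher and 451 lower, with 49.6% of the calls made with all libraries. Leaving out replicate 1 of NLS 1 copy left 402 higher and 577 lower. A rise may reflect more cells of a type or more RNA per cell, and a fall fewer cells or less RNA per cell. These cannot be told apart in whole flies.

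Among genes with a CG number only, 3 on chromosome arm 2L lost most of their signal. CG31808 (2L, 16704286 to 16716195, build BDGP6 as for all positions below) held 2.67, 2.55 and 2.74 TPM in NLS 2 copies, against 35.6, 34.8 and 37.8 TPM in NLS 1 copy. The groups lay far apart (log2 difference -3.34 ± 0.10, SE, adjusted p = 4.12e-28), and w1118 held 77.0 ± 5.91 TPM (SD, n = 3). The annotated span of CG31808 overlaps Cyt-c-d on the opposite strand, and the counting of strands is not given in the sources used here. CG43401 (2L, 1428474 to 1429159) had 0.352, 0.336 and 0 TPM in NLS 2 copies, against 10.4, 13.5 and 13.4 TPM in NLS 1 copy (log2 difference -3.46 ± 0.18, SE, adjusted p = 7.42e-19). Its level in w1118 was low as well, at 0.683 ± 0.568 TPM (SD, n = 3). CG33282 (2L, 3327903 to 3329792) had 1.73, 1.80 and 0.997 TPM in NLS 2 copies, against 10.5, 11.3 and 10.4 TPM in NLS 1 copy (log2 difference -2.24 ± 0.13, SE, adjusted p = 1.05e-17). No role is given here for these 3 genes.

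Among genes with a named product, those that fell most were led by an immune amidase, a stress peptide, P450s and a seminal protein. PGRP-SC1a (2R, 8709733 to 8710320), a peptidoglycan-degrading amidase of the gut, had 0.548, 0.654 and 0 TPM in NLS 2 copies, against 10.8, 6.92 and 6.10 TPM in NLS 1 copy (log2 difference -2.67 ± 0.34, SE, adjusted p = 1.44e-07). It has a near-identical neighbour, PGRP-SC1b, with which it may have exchanged reads. Cyp310a1 (2L, 18651058 to 18653010), a P450, stood at 0.437, 0.417 and 0.762 TPM in NLS 2 copies, against 6.63, 6.63 and 6.20 TPM in NLS 1 copy (log2 difference -2.29 ± 0.12, SE, adjusted p = 2.90e-19). All 3 NLS 2-copy libraries lay below 1 TPM, and w1118 held 1.74 ± 0.0962 TPM (SD, n = 3). Sfp24Ba (2L, 3667977 to 3668551), a seminal fluid protein of the accessory gland, had 26.4, 26.2 and 37.0 TPM in NLS 2 copies, against 119.9, 122 and 127 TPM in NLS 1 copy (log2 difference -2.02 ± 0.15, SE, adjusted p = 1.26e-13). TotM (2L, 5329857 to 5330464), a Turandot peptide secreted under stress, had 5.11, 2.79 and 3.72 TPM in NLS 2 copies, against 132, 5.16 and 17.4 TPM in NLS 1 copy (log2 difference -2.37 ± 0.61, SE, adjusted p = 0.00671). Its difference was -1.16 with adjusted p = 0.188 without replicate 1 of NLS 1 copy, the library with the high value.

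Smaller but tight decreases followed in enzymes. Cyp6w1 (2R, 6173684 to 6176195) had 8.12, 8.29 and 10.4 TPM in NLS 2 copies, against 32.9, 39.8 and 35.2 TPM in NLS 1 copy (log2 difference -1.90 ± 0.09, SE, adjusted p = 2.60e-19), and Cyp6d2 (2R, 22652573 to 22654530) had 8.38, 8.61 and 8.79 TPM in NLS 2 copies, against 26.0, 26.8 and 25.2 TPM in NLS 1 copy (log2 difference -1.49 ± 0.08, SE, adjusted p = 7.42e-19). For both P450 genes, lack of overlap between the groups was a condition of being named. Tengl2 (2L, 2238304 to 2239384), an endonuclease G-like gene, had 1.58, 1.74 and 1.71 TPM in NLS 2 copies, against 7.11, 6.72 and 6.89 TPM in NLS 1 copy (log2 difference -1.56 ± 0.13, SE, adjusted p = 7.02e-12). Pepck, which encodes phosphoenolpyruvate carboxykinase, the key enzyme of gluconeogenesis, had 152, 155.8 and 122 TPM in NLS 2 copies, against 377, 273 and 299 TPM in NLS 1 copy (log2 difference -1.13 ± 0.14, SE, adjusted p = 1.50e-07); its symbol matched no single gene of the annotation. Arc1 (2R, 14357927 to 14360297), a retrotransposon-derived capsid protein that is expressed in neurons, had 64.7, 62.1 and 86.0 TPM in NLS 2 copies, against 138, 133 and 122 TPM in NLS 1 copy (log2 difference -0.89 ± 0.22, SE, adjusted p = 0.00544). The remaining named decreases were Ugt58Fa (log2 difference -1.09), a UDP-glycosyltransferase, and the P450s Cyp4p3 (-1.07) and Cyp6a20 (-0.87).

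Among named genes whose libraries did not overlap, the largest increase was in edin, and its call depended on 1 library. edin (3L, 17494880 to 17495300), a small secreted peptide induced by infection, had 3.64, 8.40 and 204 TPM in NLS 2 copies, against 0.193, 0.773 and 0 TPM in NLS 1 copy (log2 difference 4.01 ± 0.96, SE, adjusted p = 0.00361), and without replicate 3 of NLS 2 copies the difference was 2.36 with adjusted p = 0.125. Other increases did not rest on that library. deltaTry (2R, 11355319 to 11356128), a digestive trypsin, had 13.4, 24.2 and 15.6 TPM in NLS 2 copies, against 1.71, 0 and 0 TPM in NLS 1 copy (log2 difference 3.71 ± 0.48, SE, adjusted p = 2.11e-07). It was listed at 0 in 2 of the NLS 1-copy libraries, and its level in w1118 was 157 ± 7.41 TPM (SD, n = 3). The gene deltaTry shares near-identical sequence with other trypsins of its cluster, so its reads could have been split among them. phu (3R, 9494801 to 9496723) had 47.2, 36.5 and 45.6 TPM in NLS 2 copies, against 2.88, 9.01 and 6.35 TPM in NLS 1 copy (log2 difference 2.74 ± 0.45, SE, adjusted p = 2.50e-05). LysX (3L, 1194739 to 1195302), a lysozyme with similar neighbouring copies, had 24.0, 15.5 and 40.3 TPM in NLS 2 copies, against 7.79, 8.80 and 5.06 TPM in NLS 1 copy (log2 difference 1.68 ± 0.36, SE, adjusted p = 0.00107). Act88F (3R, 15439969 to 15442177), the actin of the indirect flight muscle, had 291, 353 and 288 TPM in NLS 2 copies, against 136, 119 and 144 TPM in NLS 1 copy (log2 difference 1.22 ± 0.22, SE, adjusted p = 1.04e-04).

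Further increases sat at just under 2-fold. The P450 Cyp4p2 (2R, 9237512 to 9239831) had 58.5, 48.8 and 56.0 TPM in NLS 2 copies, against 26.2, 27.3 and 28.2 TPM in NLS 1 copy (log2 difference 0.97 ± 0.09, SE, adjusted p = 1.46e-11), while w1118 held 0.0583 ± 0.0247 TPM (SD, n = 3). phr (2R, 7825289 to 7827319), the photolyase that repairs ultraviolet damage in DNA, had 44.2, 39.6 and 43.5 TPM in NLS 2 copies, against 22.9, 20.9 and 22.99 TPM in NLS 1 copy (log2 difference 0.90 ± 0.06, SE, adjusted p = 2.56e-14). GstE3 (2R, 18400713 to 18401467), a glutathione S-transferase, had 169, 179 and 197 TPM in NLS 2 copies, against 89.5, 114.7 and 97.9 TPM in NLS 1 copy (log2 difference 0.85 ± 0.09, SE, adjusted p = 6.89e-09). All 3 were named under the rule that required no overlap between the groups. Vago (X, 11089290 to 11090219), a secreted peptide of the antiviral response, had 92.5, 78.4 and 106 TPM in NLS 2 copies, against 42.9, 48.3 and 52.4 TPM in NLS 1 copy (log2 difference 0.93 ± 0.10, SE, adjusted p = 3.09e-09). Log2 differences were 0.94 for the P450 Cyp309a2, 0.94 for Drat, an alcohol dehydrogenase-related gene, and 0.84 for the gut protease Jon65Ai, which did not pass without replicate 2 of NLS 2 copies (adjusted p = 0.05934). Of genes with a CG number only and without overlap, CG30280 (1.45), CG15263 (1.37) and CG32984 (1.32) rose most. The annotated spans of Cyp310a1, Cyp4p2, Cyp4p3, Cyp6d2, phr, deltaTry, Sfp24Ba and CG30280 overlap another gene on the opposite strand, and those of edin and Vago one on the same strand, so their reads are uncertain where the counting could not separate the pair.

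**Figure D1:**
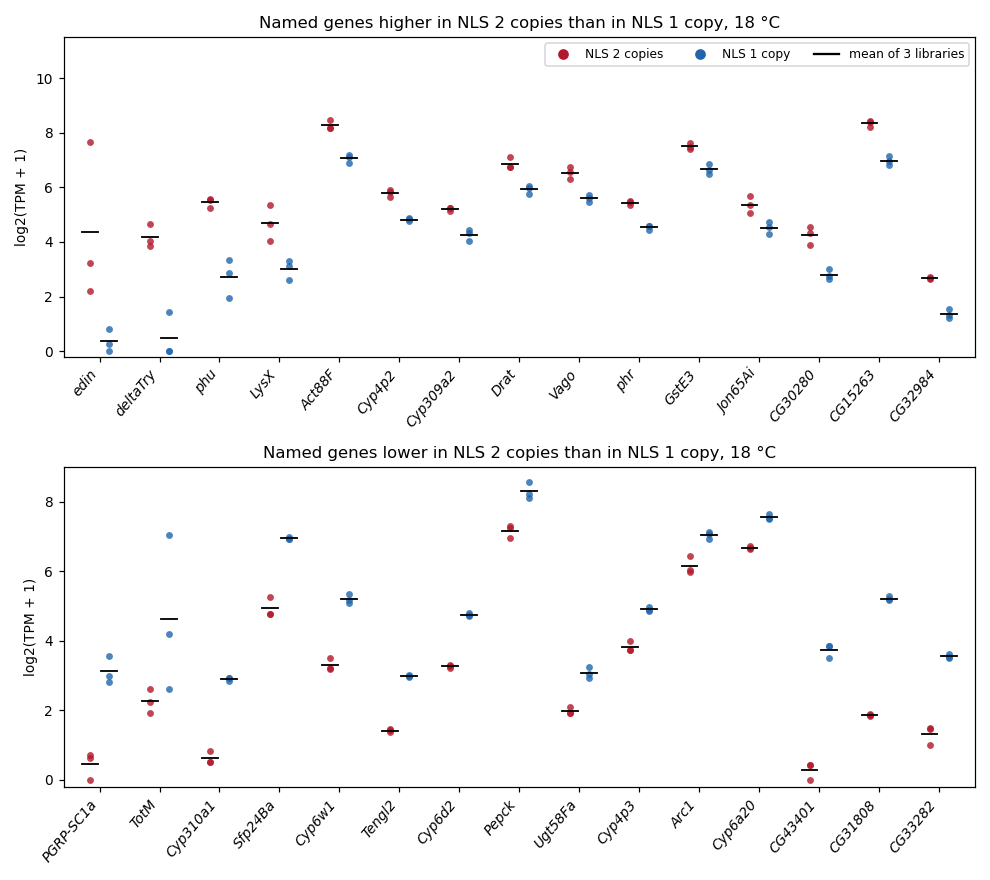
Level of each named gene, log2(TPM + 1), in the 3 NLS 2-copy libraries (red, left) and the 3 NLS 1-copy libraries (blue, right) at 18 °C, with a black line at each mean. The upper panel holds genes that were higher in NLS 2 copies and the lower panel genes that were lower; the single high edin value is replicate 3 of NLS 2 copies, and the single high TotM value is replicate 1 of NLS 1 copy.

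The genes that changed were concentrated on chromosome 2. Of 4943 tested genes on arms 2L and 2R, 883 passed (17.9%), against 688 of 7568 on all other chromosomes (9.09%). By arm, 17.4% of genes on 2L and 18.3% on 2R passed, against 8.48% on 3L, 8.39% on 3R and 11% on X. The larger changes were more one-sided still, with 44 of the 60 genes that changed by 2-fold or more on chromosome 2, 15 elsewhere and 1 unplaced. All 6 genes with a CG number named above and 17 of the 24 others lie on chromosome 2, and 1 was unplaced. Along 2L the share ran from 13.8% to 20.3% in 5-Mb windows, and along 2R from 17.6% to 20.4% in the windows between 5 and 25 Mb. The end windows of 2R held 1 call among 34 genes and 2 among 14. X stood out by direction, since 39 of its 216 called genes were higher and 177 lower.

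Without replicate 3 of NLS 2 copies, 11% of the genes on chromosome 2 passed, against 3.59% on 3L, 3R and X combined. Without replicate 1 of NLS 1 copy these shares were 12.2% and 4.87%. With all 6 libraries they were 17.9% and 9.12%. The direction on X did depend on 1 library, since without replicate 3 of NLS 2 copies, 28 of its genes were higher and 41 lower.

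A higher share was also called on chromosome 2 in the 3 other comparisons of 2 copies with 1. In NLS flies at 25 °C, 10.0% of all genes passed, with 15.6% on 2L and 16.2% on 2R against 6.68% on 3L, 6.34% on 3R and 5.06% on X. In NLS flies at 29 °C, where 18.8% of all genes passed, the shares were 26.4% and 24.7% on 2L and 2R, 16% and 15.6% on 3L and 3R, and 10.6% on X. In Mito flies at 18 °C, which share no library with the NLS groups, 8.93% of all genes passed, with 15.4% on 2L, 15.2% on 2R, 4.85% on 3L, 5.02% on 3R and 3.99% on X.

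**Figure D2:**
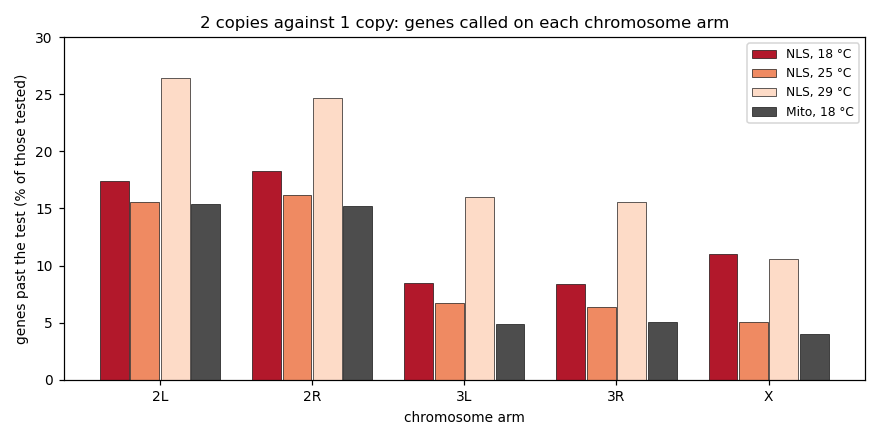
Share of tested genes past the test (percent, adjusted p under 0.05) on each chromosome arm for 2 copies against 1 copy, in NLS flies at 18, 25 and 29 °C and in Mito flies at 18 °C. In all 4 comparisons 2L and 2R stand above 3L, 3R and X.

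Genes called at 18 °C mostly moved the same way in these other comparisons, none of which shares a library with it. At 25 °C, 93.0% of the 1580 genes had a difference of the same sign, against 70.0% of all genes tested, and 635 passed in the same direction (40.2% of the 18 °C list and 50.6% of the 25 °C list). At 29 °C the sign was the same for 78.0%, against 61.0% of all genes, and 537 passed the same way (34.0% and 22.7% of the lists). In Mito flies at 18 °C it was the same for 87.5%, against 64.6% of all genes, and 560 passed the same way (35.4% of the 18 °C list, and 560 of the 1121 Mito genes). Of the genes on chromosome 2 that were called at 18 °C, 51.6% passed in the same direction in NLS flies at 25 °C, 46.3% at 29 °C and 49.7% in Mito flies. For called genes on other chromosomes the shares were 25.4%, 18.0% and 16.7%. Altogether 357 genes passed in the same direction in NLS flies at all 3 temperatures, of which 297 lie on chromosome 2. In Mito flies 275 of them did so as well, 240 on chromosome 2.

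The gene phr differed by 0.90 in NLS flies at 18 °C, 0.91 at 25 °C, 0.84 at 29 °C and 0.90 in Mito flies at 18 °C, with a standard error of 0.06 in each. The 4 values for CG31808 were -3.34, -3.49, -3.30 and -3.28, and those for Tengl2 were -1.56, -1.38, -1.42 and -1.52. In Mito flies at 18 °C, CG31808 stood at 2.33, 2.89 and 2.60 TPM with 2 copies, against 33.0, 33.9 and 34.9 TPM with 1 copy, beside 2.67, 2.55 and 2.74 TPM in NLS 2 copies and 35.6, 34.8 and 37.8 TPM in NLS 1 copy. Cyp6d2 was at 9.19 ± 0.924 TPM in w1118 (SD, n = 3), near its level in NLS 2 copies, and CG33282 at 20.1 ± 1.08 TPM (SD, n = 3), above both NLS groups.

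**Figure D3:**
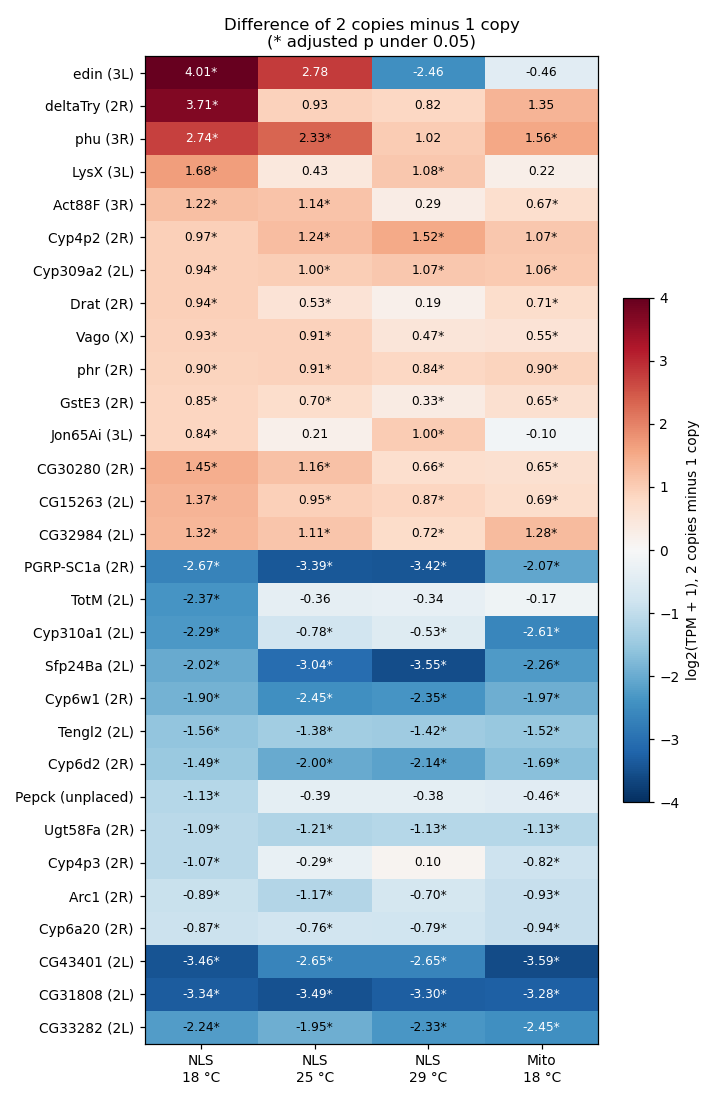
Log2(TPM + 1) difference of 2 copies minus 1 copy for the 30 named genes, with the chromosome arm in brackets, in NLS flies at 18, 25 and 29 °C and in Mito flies at 18 °C. Asterisks mark adjusted p under 0.05; genes such as phr, CG31808 and Tengl2 hold nearly the same value in all 4 columns, and edin, TotM and Pepck do not.

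Detoxification genes changed in both directions. Of 80 cytochrome P450s tested, 10 rose and 12 fell (median log2 difference -0.02; 0.01 with median-ratio scaling), 27.5% of the list beside 12.6% of all genes. On chromosome 2, 20 of 44 P450s passed, and elsewhere 2 of 35. Besides those named above, Cyp4e3 had 35.5, 34.2 and 41.3 TPM in NLS 2 copies, against 20.3, 20.9 and 22.5 TPM in NLS 1 copy (log2 difference 0.77 ± 0.15, SE, adjusted p = 3.01e-04), and Cyp4e1 differed by 0.55. Cyp6a2, known for its part in insecticide resistance, had 40.7, 46.4 and 41.01 TPM in NLS 2 copies, against 61.0, 65.2 and 67.4 TPM in NLS 1 copy (log2 difference -0.59 ± 0.09, SE, adjusted p = 3.89e-06). Neither gene overlapped between the groups. Cyp4g1 on X, the oenocyte enzyme that completes cuticular hydrocarbons, had 12157, 12086 and 10851 TPM in NLS 2 copies, against 13141, 13635 and 13481 TPM in NLS 1 copy (log2 difference -0.20 ± 0.06, SE, adjusted p = 0.0199). It passed in 6 of 12 alternative fits, and not without replicate 3 of NLS 2 copies (adjusted p = 0.182) or with quantile normalization (0.358).

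Conjugating enzymes changed in both directions. Of 35 glutathione S-transferases, 7 rose and 1 fell (median 0.01), 22.9% of the list beside 12.6% of all genes. GstT1 had 71.1, 68.2 and 66.5 TPM in NLS 2 copies, against 45.8, 54.1 and 52.8 TPM in NLS 1 copy (log2 difference 0.43 ± 0.06, SE, adjusted p = 3.30e-06), without overlap. GstE7 (log2 difference 0.35) and GstO3 (0.18) also rose. Neither passed without replicate 1 or 3 of NLS 1 copy, or without replicate 3 of NLS 2 copies (adjusted p = 0.186 and 0.0913 for the last). Without that library 3 members of the list rose and none fell, and without replicate 1 of NLS 1 copy 2 rose and 1 fell. Among 30 UDP-glycosyltransferases, which attach sugars to small molecules, 6 rose and 3 fell (median 0.04). CG4302, which fell, had 29.6, 30.5 and 29.7 TPM in NLS 2 copies, against 63.9, 64.5 and 68.3 TPM in NLS 1 copy (log2 difference -1.11 ± 0.06, SE, adjusted p = 3.15e-17), and CG17322, which rose, had 11.3, 10.9 and 10.1 TPM in NLS 2 copies, against 6.80, 6.46 and 5.83 TPM in NLS 1 copy (log2 difference 0.68 ± 0.07, SE, adjusted p = 4.41e-10). Over the 3 lists, 34 of 74 members on chromosome 2 passed and 5 of 70 elsewhere. Of 24 antioxidant genes 2 were higher and 5 lower (29.2%), with a median of -0.01 that became 0.02 with median-ratio scaling. Without either library that stood apart, 2 rose and 3 fell. cnc, the fly Nrf2 factor that drives many detoxification genes, had 41.9, 39.1 and 37.1 TPM in NLS 2 copies, against 46.5, 47.8 and 48.2 TPM in NLS 1 copy (log2 difference -0.27 ± 0.05, SE, adjusted p = 1.22e-04). The mitochondrial superoxide dismutase Sod2 had 419, 421 and 361 TPM in NLS 2 copies, against 344, 347 and 329 TPM in NLS 1 copy (log2 difference 0.23 ± 0.05, SE, adjusted p = 0.00141), while the peroxiredoxin Prx2540-1 (-0.41), which has near-identical copies, and Gclc (-0.27), the catalytic subunit of glutathione synthesis, fell.

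Of 12 small heat-shock proteins, 2 rose and none fell (median 0.05), 16.7% of the list beside 12.6% of all genes. l(2)efl had 187, 176 and 153 TPM in NLS 2 copies, against 116, 121 and 119 TPM in NLS 1 copy (log2 difference 0.53 ± 0.09, SE, adjusted p = 3.41e-05), and CG14207 differed by 0.29 (adjusted p = 0.0012). Of 11 inducible Hsp70, Hsp68, Hsp83 and cochaperone genes, 1 passed (9.09%): the Hsp90 gene Hsp83 was lower (log2 difference -0.16 ± 0.05, SE, adjusted p = 0.0392). It did not pass without replicate 2 or 3 of NLS 2 copies, or without any 1 replicate of NLS 1 copy (adjusted p between 0.05457 and 0.1785). The inducible Hsp70 copy Hsp70Bc stood at 0.574, 0.773 and 0.364 TPM in NLS 2 copies, against 0.887, 1.36 and 1.30 TPM in NLS 1 copy, at or below 1.36 TPM in all 6 libraries, and did not pass (log2 difference -0.48 ± 0.21, SE, adjusted p = 0.132); the Hsp70 copies are near-identical and may have exchanged reads. Constitutive chaperones had 2 of 24 higher and 2 lower (16.7%), and none passed without replicate 3 of NLS 2 copies. Among them Hsc70-4, the major cytosolic Hsp70, was lower by a small amount (log2 difference -0.15 ± 0.05, SE, adjusted p = 0.0315). It did not pass without replicate 2 or 3 of NLS 2 copies, or without replicate 1 or 2 of NLS 1 copy (adjusted p between 0.08572 and 0.1516). None of 18 mitochondrial chaperones and proteases passed with limma, and 2 did at an unadjusted p under 0.05.

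Among endoplasmic reticulum (ER) folding genes the calls were lower, and among proteasome genes they were higher. Of 26 ER genes, 7 were lower and none higher, 26.9% of the list beside 7.81% of all genes lower. The median was -0.11, between -0.12 and -0.08 under the other scalings. Der-1, a channel component of ER-associated degradation, had 76.9, 83.2 and 82.5 TPM in NLS 2 copies, against 111, 113 and 111 TPM in NLS 1 copy (log2 difference -0.46 ± 0.04, SE, adjusted p = 1.75e-10). Pdi, the disulphide isomerase, had 374, 379 and 361 TPM in NLS 2 copies, against 431, 448 and 418 TPM in NLS 1 copy (log2 difference -0.22 ± 0.05, SE, adjusted p = 8.17e-04), and Hsc70-3, the ER chaperone BiP, had 214, 225 and 217 TPM in NLS 2 copies, against 242, 257 and 244 TPM in NLS 1 copy (log2 difference -0.18 ± 0.06, SE, adjusted p = 0.0314). All 3 were without overlap. Without replicate 3 of NLS 2 copies 3 members of the list passed, as did 3 without replicate 1 of NLS 1 copy. Hsc70-3 did not pass without replicate 1 or 3 of NLS 2 copies, or without any 1 replicate of NLS 1 copy (adjusted p between 0.05018 and 0.1369). The ER list also had 7 lower in NLS flies at 25 °C, 7 at 29 °C and 2 in Mito flies. Of 46 proteasome subunits, 7 were higher and none lower (median 0.07), 15.2% of the list beside 4.78% of all genes higher. All 7 lie on chromosome 2, where 20 members were tested. Without replicate 1 of NLS 1 copy 4 passed, with quantile normalization 4, and in the 6 libraries alone 2. Prosalpha6, a subunit of the catalytic core, had 142, 147 and 151 TPM in NLS 2 copies, against 128, 130.1 and 124 TPM in NLS 1 copy (log2 difference 0.21 ± 0.05, SE, adjusted p = 0.00238), and Prosalpha7 differed by 0.16 (adjusted p = 0.00579). Prosbeta5R2, a testis form of a core subunit, had 25.1, 27.3 and 26.0 TPM in NLS 2 copies, against 21.7, 19.9 and 20.9 TPM in NLS 1 copy (log2 difference 0.31 ± 0.08, SE, adjusted p = 0.00764). Autophagy genes were lower in 4 of 26 (15.4%, median -0.10), among them ref(2)P, the fly p62 adaptor that delivers ubiquitinated cargo (log2 difference -0.24 ± 0.05, SE, adjusted p = 4.08e-04). In this list 1 gene passed without replicate 3 of NLS 2 copies, and 1 without replicate 1 of NLS 1 copy.

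Of 38 nuclear transport and pore genes, 2 rose and 3 fell (median -0.03), 13.2% of the list beside 12.6% of all genes. The counts were 2 and 1 without replicate 3 of NLS 2 copies. RanGAP, which activates the GTPase of the Ran transport cycle, had 34.8, 30.5 and 33.8 TPM in NLS 2 copies, against 23.9, 21.7 and 23.8 TPM in NLS 1 copy (log2 difference 0.49 ± 0.06, SE, adjusted p = 2.95e-07). Its difference was 0.48 at 25 °C, 0.47 at 29 °C and 0.48 in Mito flies, each past the test. Nup54, a central channel nucleoporin, had 44.4, 42.1 and 43.7 TPM in NLS 2 copies, against 34.3, 33.5 and 34.2 TPM in NLS 1 copy (log2 difference 0.34 ± 0.06, SE, adjusted p = 4.26e-05). Fs(2)Ket, the fly importin beta, had 24.3, 21.5 and 22.5 TPM in NLS 2 copies, against 27.5, 29.0 and 28.2 TPM in NLS 1 copy (log2 difference -0.30 ± 0.07, SE, adjusted p = 0.00237). In the SUMO pathway, 2 of 11 genes rose (18.2%): smt3, which encodes SUMO, had 244, 246 and 261 TPM in NLS 2 copies, against 212, 223 and 229 TPM in NLS 1 copy (log2 difference 0.18 ± 0.05, SE, adjusted p = 0.0187), and Aos1, a subunit of its activating enzyme, had 28.7, 30.2 and 31.0 TPM in NLS 2 copies, against 25.2, 25.3 and 24.9 TPM in NLS 1 copy (log2 difference 0.24 ± 0.07, SE, adjusted p = 0.0138). Neither SUMO gene passed without replicate 3 of NLS 2 copies (adjusted p = 0.13 and 0.0793), and smt3 did not without replicate 1 of NLS 1 copy (0.1137).

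Among lamina and envelope genes 1 of 10 passed (10.0%, beside 12.6% of all genes). The lamin gene Lam was lower (log2 difference -0.17 ± 0.06, SE, adjusted p = 0.0462). It did not pass without replicate 2 or 3 of NLS 2 copies, or without any 1 replicate of NLS 1 copy (adjusted p between 0.07324 and 0.2032). Of 25 DNA damage genes, hid, which triggers cell death, and Xrp1, a stress transcription factor, fell. hid had 5.86, 6.07 and 5.54 TPM in NLS 2 copies, against 8.41, 7.76 and 7.29 TPM in NLS 1 copy (log2 difference -0.37 ± 0.07, SE, adjusted p = 3.14e-04) and Xrp1 had 204, 194 and 199.7 TPM in NLS 2 copies, against 226, 243 and 234 TPM in NLS 1 copy (log2 difference -0.23 ± 0.05, SE, adjusted p = 3.89e-04). Of 7 histone genes 3 passed (42.9%, beside 12.6% of all genes), and 1 did without replicate 3 of NLS 2 copies. The gene cid, the centromeric histone H3 variant, had 1.11, 1.59 and 1.48 TPM in NLS 2 copies, against 5.93, 4.01 and 3.62 TPM in NLS 1 copy (log2 difference -1.19 ± 0.16, SE, adjusted p = 4.74e-07). The cid difference was -1.49 at 25 °C, -0.98 at 29 °C and -1.08 in Mito flies.

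**Figure D4:**
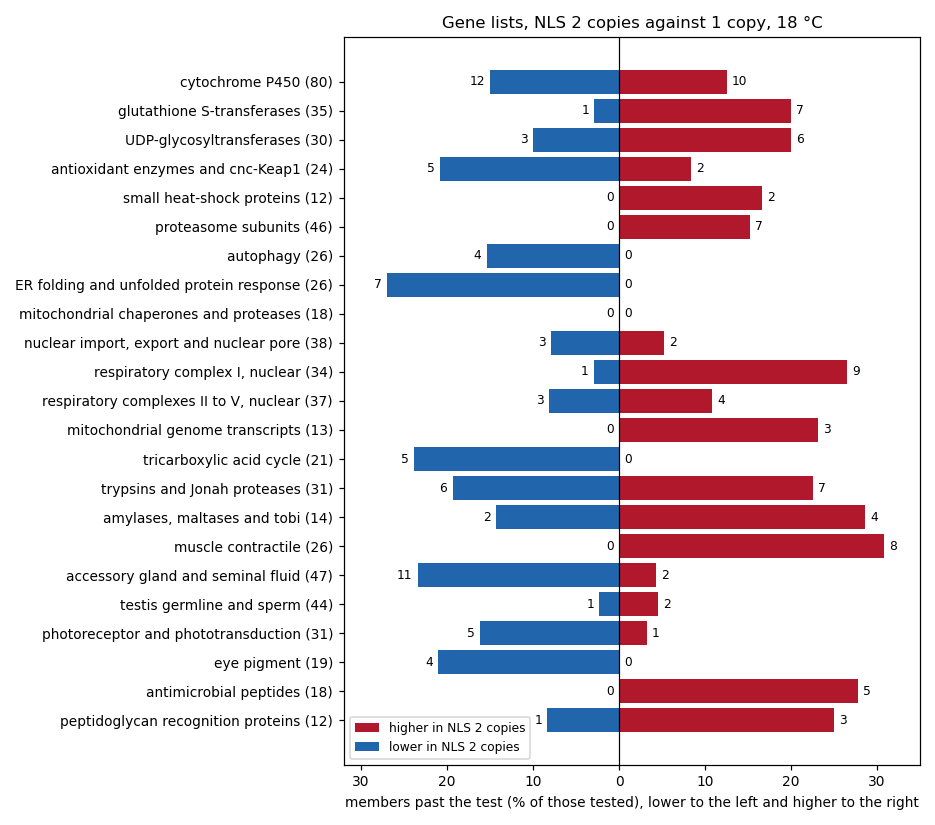
Share of the tested members of each gene list past the test (percent of those tested; the number tested in brackets), with members lower in NLS 2 copies to the left in blue and members higher to the right in red, and the counts beside the bars. Over all genes 4.78% were higher and 7.81% lower; ER folding, tricarboxylic acid cycle and autophagy genes hold no member that rose, and proteasome and muscle genes none that fell.

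Some transcripts of the mitochondrial genome, of complex I and of muscle were higher with 2 copies. The 13 mitochondrial genome transcripts summed to 79550 to 85430 TPM in NLS 2 copies and 68190 to 76400 TPM in NLS 1 copy. Of them 3 passed, all higher (median 0.25), 23.1% of the list beside 4.78% of all genes higher. This list had 6 members higher and none lower in NLS flies at 25 °C, and no member past the test at 29 °C or in Mito flies at 18 °C. mt:ATPase6, a subunit of the ATP synthase, had 7762, 8698 and 8711 TPM in NLS 2 copies, against 5655, 5708 and 6344 TPM in NLS 1 copy (log2 difference 0.51 ± 0.10, SE, adjusted p = 2.51e-04), and mt:Cyt-b of complex III had 12568, 13566 and 13893 TPM in NLS 2 copies, against 10518, 10157 and 10782 TPM in NLS 1 copy (log2 difference 0.35 ± 0.09, SE, adjusted p = 0.00493). Of 34 nuclear genes of respiratory complex I, 9 rose and 1 fell (median 0.10), 29.4% of the list beside 12.6% of all genes. ND-13A had 269, 277 and 258 TPM in NLS 2 copies, against 218, 225 and 219 TPM in NLS 1 copy (log2 difference 0.28 ± 0.04, SE, adjusted p = 2.23e-06) and ND-ACP, the acyl carrier subunit, had 379, 393 and 361 TPM in NLS 2 copies, against 302, 312 and 318 TPM in NLS 1 copy (log2 difference 0.28 ± 0.05, SE, adjusted p = 1.40e-04). Of 37 genes of complexes II to V, 4 rose and 3 fell (18.9%). Without replicate 3 of NLS 2 copies 4 rose and 1 fell, and without replicate 1 of NLS 1 copy 2 rose and 2 fell. The complex I list had 14 members higher and none lower in NLS flies at 25 °C, and also 14 higher and none lower in Mito flies at 18 °C. In NLS flies at 29 °C the complex I list went the other way, with 1 member higher and 11 lower (median -0.12).

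Of 26 muscle contractile genes, 8 rose and none fell (median 0.12), 30.8% of the list beside 4.78% of all genes higher. None of the 8 lies on chromosome 2. Mlc1, the alkali light chain of muscle myosin, had 823, 877 and 822 TPM in NLS 2 copies, against 673, 630.1 and 689 TPM in NLS 1 copy (log2 difference 0.34 ± 0.06, SE, adjusted p = 7.98e-05), and TpnC73F, a troponin C, had 68.2, 74.9 and 70.0 TPM in NLS 2 copies, against 56.1, 54.8 and 58.8 TPM in NLS 1 copy (log2 difference 0.32 ± 0.07, SE, adjusted p = 0.00242). Mlc2, the regulatory light chain, had 1350.0, 1466 and 1339 TPM in NLS 2 copies, against 1137, 1025 and 1179 TPM in NLS 1 copy (log2 difference 0.32 ± 0.08, SE, adjusted p = 0.00779). The summed level of the list was 9706 to 10750 TPM in NLS 2 copies and 8440 to 9210 TPM in NLS 1 copy, without overlap. Without replicate 3 of NLS 2 copies 11 members passed, all higher. The muscle list had 8 members higher and none lower at 25 °C, none higher and 10 lower at 29 °C, and 11 higher and none lower in Mito flies. The part of muscle content in the rise of respiratory transcripts was not tested.

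In central carbon metabolism the calls were lower. Of 21 tricarboxylic acid cycle genes, 5 fell and none rose (median -0.04, and -0.01 with median-ratio scaling), 23.8% of the list beside 7.81% of all genes lower. The list had 3 members higher and 1 lower at 25 °C, none higher and 8 lower at 29 °C, and 4 higher and none lower in Mito flies. SdhA, the flavoprotein subunit of succinate dehydrogenase, had 499, 509 and 454 TPM in NLS 2 copies, against 614, 564 and 571 TPM in NLS 1 copy (log2 difference -0.26 ± 0.05, SE, adjusted p = 5.50e-04), and Idh, an isocitrate dehydrogenase, had 491, 509 and 451 TPM in NLS 2 copies, against 591, 608 and 530.3 TPM in NLS 1 copy (log2 difference -0.25 ± 0.05, SE, adjusted p = 0.00104). Without replicate 3 of NLS 2 copies 2 members passed, and without replicate 1 of NLS 1 copy 2 did. Of 14 glycolysis genes 3 fell (21.4%). Of these genes 1 fell and 1 rose without replicate 3 of NLS 2 copies, and 1 fell without replicate 1 of NLS 1 copy. The glycolysis list had 2 members higher and 1 lower at 25 °C, none higher and 6 lower at 29 °C, and 4 higher and 1 lower in Mito flies. Hsl, the hormone-sensitive lipase that mobilises stored fat, had 32.8, 31.2 and 30.4 TPM in NLS 2 copies, against 39.6, 39.6 and 39.4 TPM in NLS 1 copy (log2 difference -0.32 ± 0.05, SE, adjusted p = 7.27e-06), 1 of the 4 among 19 lipid genes that fell. Calls in either direction made up 31.6% of the lipid list, beside 12.6% of all genes. The gene mdy, which makes triglyceride, was 1 of 2 that rose (log2 difference 0.29 ± 0.08, SE, adjusted p = 0.00868), and it did not pass without replicate 1 of NLS 1 copy (adjusted p = 0.0662).

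Of 31 trypsins and Jonah proteases, 7 rose and 6 fell, 41.9% of the list beside 12.6% of all genes. The median was -0.02, and 0.01 with median-ratio scaling. The counts were 4 and 1 without replicate 3 of NLS 2 copies, and 5 and 2 without replicate 1 of NLS 1 copy. Besides deltaTry, iotaTry had 41.5, 42.1 and 38.7 TPM in NLS 2 copies, against 27.7, 28.6 and 34.4 TPM in NLS 1 copy (log2 difference 0.43 ± 0.07, SE, adjusted p = 3.72e-05) without overlap. The abundant trypsin alphaTry had 3284, 3377 and 3052 TPM in NLS 2 copies, against 4066, 4108 and 3563 TPM in NLS 1 copy (log2 difference -0.27 ± 0.06, SE, adjusted p = 0.00278), and betaTry had 2327, 2472 and 2089 TPM in NLS 2 copies, against 3189, 3071 and 2559.9 TPM in NLS 1 copy (log2 difference -0.35 ± 0.11, SE, adjusted p = 0.0204), near-identical genes of the same cluster. In w1118 betaTry stood at 39.8 ± 5.15 TPM (SD, n = 3). Of 14 amylase, maltase and tobi genes, 4 rose and 2 fell (42.9%). The maltases Mal-A1, Mal-A2 and Mal-A8, which split disaccharides, rose with tobi, and the maltase Mal-B2 and the amylase Amy-d fell. The tobi call held in 5 of 12 alternative fits, and was lost without replicate 3 of NLS 2 copies (adjusted p = 0.3308). Mal-A1 had 1956, 1905 and 1953 TPM in NLS 2 copies, against 1385, 1481 and 1497 TPM in NLS 1 copy (log2 difference 0.41 ± 0.07, SE, adjusted p = 1.68e-05), Mal-A2 differed by 0.37 and Mal-A8 by 0.33. Mal-B2 had 146, 142 and 163 TPM in NLS 2 copies, against 183, 195 and 194 TPM in NLS 1 copy (log2 difference -0.34 ± 0.10, SE, adjusted p = 0.0164), and it did not pass without replicate 2 of either group (adjusted p = 0.07905 for NLS 2 copies and 0.06054 for NLS 1 copy). Elsewhere Mal-A1 differed by 0.06 at 25 °C (adjusted p = 0.7), -0.26 at 29 °C (adjusted p = 0.00451) and 0.08 in Mito flies (adjusted p = 0.514).

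Among seminal fluid and eye genes more members fell than rose. Of 47 accessory gland and seminal fluid genes, 2 rose and 11 fell, 27.7% of the list beside 12.6% of all genes. The median was -0.19, between -0.21 and -0.16 under the other scalings. Sfp93F had 172, 212 and 189 TPM in NLS 2 copies, against 273, 288 and 279.6 TPM in NLS 1 copy (log2 difference -0.55 ± 0.08, SE, adjusted p = 1.18e-06) and Semp1, a seminal metalloprotease, had 10.2, 13.1 and 13.6 TPM in NLS 2 copies, against 19.4, 23.9 and 21.7 TPM in NLS 1 copy (log2 difference -0.78 ± 0.14, SE, adjusted p = 1.20e-04), both without overlap. The list summed to 39150 to 42430 TPM in NLS 2 copies and 41960 to 47100 TPM in NLS 1 copy. Of 44 testis genes 2 were higher and 1 lower (6.82%, median 0.01). ProtB, a sperm protamine, had 291, 281 and 281 TPM in NLS 2 copies, against 223, 221 and 230.2 TPM in NLS 1 copy (log2 difference 0.34 ± 0.07, SE, adjusted p = 0.00135). Of 31 photoreceptor genes, 1 rose and 5 fell (19.4%, median -0.10). Rh4, a rhodopsin sensitive to ultraviolet light, had 138, 124 and 145 TPM in NLS 2 copies, against 188, 184 and 189 TPM in NLS 1 copy (log2 difference -0.47 ± 0.08, SE, adjusted p = 5.00e-05), and Rh6, a green-sensitive rhodopsin, had 20.2, 32.7 and 47.2 TPM in NLS 2 copies, against 49.9, 51.8 and 73.8 TPM in NLS 1 copy (log2 difference -0.85 ± 0.17, SE, adjusted p = 5.05e-04). ninaD, a scavenger receptor that takes up carotenoids for visual pigment, had 41.5, 37.3 and 33.7 TPM in NLS 2 copies, against 53.1, 75.2 and 56.8 TPM in NLS 1 copy (log2 difference -0.69 ± 0.12, SE, adjusted p = 5.91e-05), and trpl, a channel of the light response, had 123, 109.6 and 122 TPM in NLS 2 copies, against 158, 174 and 152 TPM in NLS 1 copy (log2 difference -0.45 ± 0.09, SE, adjusted p = 6.27e-04). Eye pigment genes fell in 4 of 19 (21.1%, median -0.04), among them lt (log2 difference -0.32 ± 0.05, SE, adjusted p = 1.24e-05) and ry, which encodes xanthine dehydrogenase (log2 difference -0.54 ± 0.12, SE, adjusted p = 9.29e-04). Without replicate 3 of NLS 2 copies, 1 seminal gene rose and 6 fell, 1 photoreceptor gene rose and 5 fell, and 3 eye pigment genes fell.

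The antimicrobial peptide calls depended on single libraries. Of 18 tested, 5 passed, all higher (AttA, AttB, Def, Dro and edin), 27.8% of the list beside 4.78% of all genes higher. The median difference was 1.87. None passed without replicate 3 of NLS 2 copies, where the median was 1.00. Without replicate 1 of NLS 1 copy 2 passed. Dro, the drosocin gene, had 3.42, 24.4 and 847 TPM in NLS 2 copies, against 1.30, 3.78 and 0.757 TPM in NLS 1 copy (log2 difference 4.09 ± 1.40, SE, adjusted p = 0.0459), and AttB, an attacin with a near-identical copy, had 11.6, 101 and 503 TPM in NLS 2 copies, against 4.91, 26.6 and 3.62 TPM in NLS 1 copy (log2 difference 3.25 ± 0.78, SE, adjusted p = 0.00374). Both overlapped between the groups. DptA, a diptericin, had 27.1, 79.98 and 2811 TPM in NLS 2 copies, against 5.09, 42.2 and 2.63 TPM in NLS 1 copy and did not pass (adjusted p = 0.0528). Replicate 3 held the highest of the 6 values for 14 of the 18 genes. Mtk, metchnikowin, had 28.6, 41.3 and 2063 TPM in NLS 2 copies, against 24.3, 9.72 and 14.9 TPM in NLS 1 copy, and did not pass (adjusted p = 0.0767). Def, the defensin gene, had 17.8, 70.1 and 38.2 TPM in NLS 2 copies, against 3.88, 27.1 and 2.86 TPM in NLS 1 copy, highest in replicate 2 of NLS 2 copies and overlapping between the groups (log2 difference 2.21 ± 0.67, SE, adjusted p = 0.0239). It did not pass without replicate 2 or 3 of NLS 2 copies (adjusted p = 0.1323 and 0.0788), or without replicate 1 or 3 of NLS 1 copy (0.1252 and 0.1456). AttA likewise failed without each of these 4 libraries (adjusted p between 0.0684 and 0.419).

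Of 12 peptidoglycan recognition proteins, 3 rose and 1, PGRP-SC1a, fell, 33.3% of the list beside 12.6% of all genes. None rose without replicate 3 of NLS 2 copies, where 2 fell, or without replicate 1 of NLS 1 copy, where 1 fell. PGRP-SD, which senses bacterial peptidoglycan, had 20.5, 20.05 and 49.8 TPM in NLS 2 copies, against 16.9, 15.2 and 15.04 TPM in NLS 1 copy (log2 difference 0.77 ± 0.26, SE, adjusted p = 0.0411), and without replicate 3 of NLS 2 copies its adjusted p was 0.483. PGRP-LF and PGRP-SA, the other two that rose, had adjusted p = 0.4558 and 0.2634 without it. PGRP-SC1a fell with or without that library (adjusted p = 1.10e-05). Its difference was -3.39 at 25 °C, -3.42 at 29 °C and -2.07 in Mito flies. Of 18 Bomanin and other immune-induced peptides, 1 rose and 2 fell (16.7%, median 0.12, and -0.07 without replicate 3 of NLS 2 copies). IM33, the member that rose, had adjusted p = 0.3356 without that library, and did not pass without replicate 1 or 2 of NLS 1 copy (0.07144 and 0.07083). CG15068 had 994, 1041 and 1473 TPM in NLS 2 copies, against 1451, 1416 and 1851 TPM in NLS 1 copy, with overlap between the groups (log2 difference -0.44 ± 0.12, SE, adjusted p = 0.0118). It did not pass without replicate 1 or 2 of NLS 2 copies or replicate 3 of NLS 1 copy (adjusted p = 0.08855, 0.07739 and 0.1157).

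**Figure D5:**
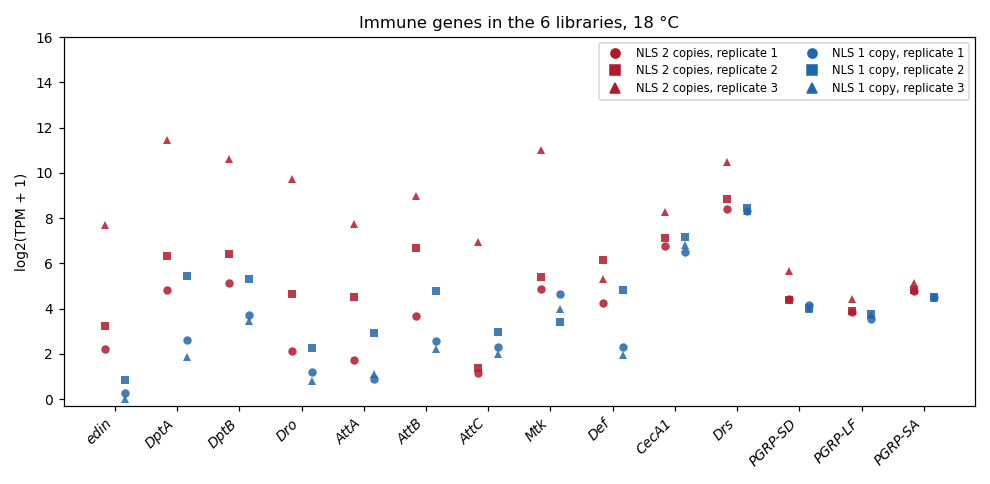
Levels of antimicrobial peptide and peptidoglycan recognition genes, log2(TPM + 1), in each of the 3 NLS 2-copy libraries (red, left) and 3 NLS 1-copy libraries (blue, right) at 18 °C; the marker shape gives the replicate. Replicate 3 of NLS 2 copies (red triangles) is the highest for all genes shown except Def. The figure holds a selection of the 18 antimicrobial peptide genes tested, of which 14 were highest in that library.

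Whether the copy difference at 18 °C was itself different elsewhere was tested as a difference of differences. Against 25 °C, 28 genes passed (0.223%), 8 with a more positive difference at 18 °C and 20 with a more negative one. Against 29 °C, 529 passed (4.21%), 264 and 265. Against Mito flies at 18 °C, 22 passed (0.175%), 15 and 7. These counts varied with the libraries fitted. In the libraries compared alone they were 3 against 25 °C, 174 against 29 °C and 0 against Mito flies with limma, where 1176 genes had an unadjusted p under 0.05. Without single libraries they were 9 to 43, 308 to 829 and 5 to 33. They were 14, 362 and 7 without replicate 3 of NLS 2 copies. Cyp310a1 passed at all 3 temperatures and fell more at 18 °C. At 25 °C it had 4.17, 4.75 and 3.91 TPM with 2 copies, against 8.66, 7.75 and 7.74 TPM with 1 copy, and its difference was more negative at 18 °C (-1.51 ± 0.16, SE, adjusted p = 1.57e-07). In Mito flies at 18 °C the Cyp310a1 difference was -2.61, and the difference between the NLS and Mito values did not pass (adjusted p = 0.481).

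Cyp4p3 behaved likewise, with differences of -1.07 at 18 °C, -0.29 at 25 °C and 0.10 at 29 °C (adjusted p = 1.10e-09 for 18 against 29 °C). Sfp24Ba and Cyp6d2 went the other way, and fell less at 18 °C. Sfp24Ba differed by -2.02 at 18 °C, -3.04 at 25 °C and -3.55 at 29 °C (adjusted p = 1.13e-05 for 18 against 29 °C). For Obp56a, an odorant-binding protein, the difference was positive in NLS flies and did not pass in Mito flies (-0.26 ± 0.14, SE, adjusted p = 0.283). It had 225, 256 and 324 TPM in NLS 2 copies, against 152, 160.1 and 175 TPM in NLS 1 copy, and in Mito flies 130.0, 143 and 117 TPM with 2 copies, against 176, 155 and 139 TPM with 1 copy (difference of differences 0.97 ± 0.20, SE, adjusted p = 0.0166).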

How the data were processed

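RNA-seq was done on whole 10-day-old males, 54 libraries in 18 groups of 3. TRIzol extraction and a TruSeq RNA kit were used, per the labels. The deposited values are TPM computed by the authors for 13926 gene symbols. The submitters' processing notes name the builds BDGP6 and dm6. Aligner, counter, strand handling and depth are not given in these sources, so no counting interval could be computed.

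Genes reaching 1 TPM in 3 or more libraries were tested (12555). Group means of log2(TPM + 1) over the 54 libraries were compared by limma 3.58.1 under R 4.3.3, in a two-sided moderated test with its variance trend on and 36 residual degrees of freedom. P-values were adjusted by Benjamini-Hochberg over all genes tested at 0.05. Adding 1 to each TPM understates the fold of genes with few TPM. Of the genes tested, 12511 (99.6%) were placed on BDGP6 by symbol or by a single synonym. The fit was tested on simulated data.

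Named genes were, each way, the 12 with a name and the 3 with a CG number that differed most, past the test, without overlap between libraries and at a mean of 5 TPM or more in either group; up to 4 members of each of 49 gene lists with the smallest p; the 5 largest each way in each difference of differences; and w. Other called list members are given beside these. The comparison, gene lists and rules were chosen with earlier results of these data known. The numbers of the replicates do not pair the libraries. Alternatives were another pseudocount, no filter, other scalings, a replicate block, only the libraries compared, and leaving out each library.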

Additional observations from a re-analysis of the deposited data

Results flagged for a closer look

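The genes below had a copy difference at 18 °C that passed in itself and differed, in its own test with limma over all genes, from the copy difference at another temperature or in Mito flies. Values are log2(TPM + 1) differences of differences, and a positive value means a more positive difference in NLS flies at 18 °C.

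Against 25 °C, the value was 1.02 for the seminal gene Sfp24Ba (adjusted p = 0.0246) and 0.51 for the P450 Cyp6d2 (0.0246). It was -1.51 for Cyp310a1 (1.57e-07), -0.79 for Cyp4p3 (3.64e-05), -0.42 for the succinate dehydrogenase subunit SdhA (0.00297) and -0.40 for the cohesin subunit SA (0.0246).

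Against 29 °C, the immune genes edin (6.48, adjusted p = 0.00324) and Def (3.54, 0.023) had the most positive values among these. At 18 °C, edin and Def did not pass without replicate 3 of NLS 2 copies (adjusted p = 0.125 and 0.0788). The trypsin deltaTry (2.89, 0.00841), Sfp24Ba (1.53, 1.13e-05) and the glucosidase tobi (1.18, 0.0196) followed. tobi stood at 435, 496 and 742 TPM in NLS 2 copies, against 400.3, 245 and 428 TPM in NLS 1 copy. Negative values were found for Cyp310a1 (-1.76, 1.10e-09), Cyp4p3 (-1.17, 1.10e-09), the kinetochore gene Kmn1 (-1.15, 0.0227), msopa (-1.11, 0.0129) and the sperm dynein gene Sdic3 (-0.99, 0.0188), which has near-identical copies. At 18 °C, tobi, Sdic3 and msopa did not pass without replicate 3 of NLS 2 copies either (adjusted p = 0.3308, 0.5361 and 0.06083). Nor did they pass without replicate 1 or 2 of NLS 1 copy (adjusted p between 0.05182 and 0.3212). Kmn1 did not pass without replicate 1 or 2 of NLS 2 copies or replicate 2 or 3 of NLS 1 copy (adjusted p between 0.05084 and 0.1481).

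Against Mito flies at 18 °C, the value was 0.97 for Obp56a (adjusted p = 0.0166), 0.73 for the kinase Takl1 (0.0259), 0.27 for the phosphatase inhibitor I-2 (0.0469) and -0.46 for LRR (0.0155). LRR stood at 24.7, 24.2 and 24.7 TPM in NLS 2 copies, against 30.1, 37.1 and 32.2 TPM in NLS 1 copy, and at 26.3, 24.0 and 25.8 TPM in Mito 2 copies, against 23.3, 24.8 and 25.6 TPM in Mito 1 copy. Fitted to the libraries compared alone, limma called 0 genes against Mito flies, these 4 included, and 1176 had an unadjusted p under 0.05.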

How the results depend on the processing

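None of the 160 named genes changed sign under any alternative. Medians of gene lists near 0 did: with median-ratio size factors the P450 median became 0.01, that of trypsins and Jonah proteases 0.01 and that of antioxidant genes 0.02, and without replicate 3 of NLS 2 copies the median of Bomanin and other immune-induced peptides became -0.07 and that of recognition proteins -0.02. With all libraries 600 genes were higher and 980 lower. Leaving out each of the 6 libraries in turn gave 370 to 513 higher and 451 to 1059 lower, with the fewest calls without replicate 3 of NLS 2 copies. Fitting only the 6 libraries gave 418 higher and 515 lower. Quantile normalization gave 725 and 1024, and median-ratio size factors 833 and 899. Same-numbered libraries did not deviate together (correlations of residuals 0.106, 0.0793 and -0.00521), and with the replicate number as a block 596 genes were higher and 969 lower. The 28 genes that differed between 18 and 25 °C became 17 with a pseudocount of 0.1, 3 in the libraries compared alone and 9 to 43 without single libraries. The 529 that differed from 29 °C became 174 in the libraries compared alone and 308 to 829 without single libraries. The 22 that differed from Mito flies became 5 to 33 without single libraries and 0 in the libraries compared alone with limma, where 1176 had an unadjusted p under 0.05. The cause of these shifts was not tested, except that fits of fewer libraries have fewer residual degrees of freedom. Of the 160 named genes, all past the test except w, 112 kept their result without replicate 3 of NLS 2 copies and 48 lost their call. In the 6 libraries alone 102 kept their result and 58 lost their call. Unknown depth limits what can be said of genes with few TPM.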

Other observations

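Odorant-binding proteins, small carriers of odours and pheromones, changed in 4 of 41 tested, 2 in each direction (9.76%, beside 12.6% of all genes). Obp99c had 1509, 1519.8 and 1542 TPM in NLS 2 copies, against 1283, 1166 and 1183 TPM in NLS 1 copy (log2 difference 0.33 ± 0.08, SE, adjusted p = 0.00253) and Obp56h had 8.02, 10.8 and 9.98 TPM in NLS 2 copies, against 21.3, 17.02 and 15.95 TPM in NLS 1 copy (log2 difference -0.85 ± 0.20, SE, adjusted p = 0.00309). Neither overlapped between the groups. Among 34 cuticle protein genes 2 rose and 2 fell (11.8%), and Cpr47Ea had 1.65, 1.95 and 0.762 TPM in NLS 2 copies, against 3.93, 4.03 and 5.51 TPM in NLS 1 copy (log2 difference -1.18 ± 0.20, SE, adjusted p = 5.21e-05). Of 29 neuropeptide genes 3 passed (10.3%, beside 12.6% of all genes). Dsk, a drosulfakinin that signals satiety, was lower at 43.1, 38.9 and 37.6 TPM in NLS 2 copies, against 48.3, 51.6 and 52.7 TPM in NLS 1 copy (log2 difference -0.35 ± 0.08, SE, adjusted p = 0.00264), and Proc, proctolin, was higher at 31.1, 28.5 and 27.2 TPM in NLS 2 copies, against 22.6, 23.5 and 24.7 TPM in NLS 1 copy (log2 difference 0.28 ± 0.08, SE, adjusted p = 0.0159). Proc did not pass without replicate 1 of either group (adjusted p = 0.08473 for NLS 2 copies and 0.0807 for NLS 1 copy). Dsk fell in Mito flies at 18 °C too (-0.53, adjusted p = 7.47e-06).

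In the clock list, tim, the light-sensitive partner of period, was the 1 of 12 genes to pass (8.33%, beside 12.6% of all genes), at 163, 133 and 145 TPM in NLS 2 copies, against 199.6, 175 and 189 TPM in NLS 1 copy (log2 difference -0.35 ± 0.09, SE, adjusted p = 0.00757). It did not pass without replicate 1 of NLS 1 copy or without replicate 2 of NLS 2 copies (adjusted p = 0.0555 and 0.06655). ple, tyrosine hydroxylase, the first enzyme of dopamine synthesis, had 18.9, 20.1 and 17.17 TPM in NLS 2 copies, against 27.5, 22.6 and 26.1 TPM in NLS 1 copy (log2 difference -0.42 ± 0.10, SE, adjusted p = 0.00361). ImpL3, lactate dehydrogenase, had 33.8, 32.9 and 28.6 TPM in NLS 2 copies, against 52.7, 39.6 and 42.0 TPM in NLS 1 copy (log2 difference -0.48 ± 0.11, SE, adjusted p = 0.00377), 1 of 3 genes of 20 in the amino acid stress list that fell. Cytosolic ribosomal protein genes had 3 of 88 higher and 5 lower (9.09%, beside 12.6% of all genes), and 1 higher and 1 lower without replicate 3 of NLS 2 copies. The Stellate and piRNA-pathway list had no member past the test with limma among 19, and 1 at an unadjusted p under 0.05.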
